A study of Mus musculus with 12 samples.

Results

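Paneth cells of small intestinal organoids are described here: 346 of 11987 epithelial cells kept from 5 single-cell libraries, chosen because the summed transcripts of Defa17, Defa24, Defa30 and Lyz1 made up at least 50 of every 10000 UMIs (unique molecular identifiers, each standing for a captured transcript), while Chga and Chgb, which mark hormone-secreting cells, stayed below 10. A kept cell carried a single hashtag, 10000 to 90000 UMIs, 3000 to 10000 detected genes and at most 8.5% mitochondrial transcripts. The members were thus chosen by measured values of these 6 genes, and their levels are given as a description, without a test. In total, 35985 barcodes were read and 24374 held a single hashtag. A further 7 kept cells passed the defensin and lysozyme threshold but were left out for Chga and Chgb.

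Paneth cells sit at the base of small intestinal crypts between the stem cells. They store alpha-defensins (short antimicrobial peptides, also called cryptdins in mice), lysozyme and other antimicrobial proteins in granules, and they present Wnt, Notch and EGF signals to the neighbouring stem cells. They arise from Atoh1-dependent secretory progenitors, which also give rise to goblet cells, the mucus producers.

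The study asked how regulatory T (Treg) cells and the cytokines IFNγ and IL-10 act on intestinal epithelium. Wild-type BALB/c small intestinal organoids were passaged and kept for 4 days in 6 conditions, in 3 biological replicates. After culture, each condition was labelled with its own hashtag antibody, live EpCAM+ cells were sorted, and all 6 conditions of a replicate were loaded together, so that replicates 1 and 2 filled 2 libraries each and replicate 3 filled the fifth library used here. Because a replicate shares its libraries across the 6 groups, free RNA and capture are shared within a replicate.

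The control group held organoids without T cells or cytokines. In the Treg group, 100000 allogeneic CD25high FoxP3-GFP+ Treg cells per well, sorted from the spleens of reporter mice, were kept beneath the organoid drop with IL-2 at 30 U/mL and CD3/CD28 beads. Further co-cultures received anti-IFNγ, anti-IL-10R (which binds the receptor of IL-10), or both antibodies, at 10 µg/mL each. The cytokine group received rIFNγ at 0.25 ng/mL and rIL-10 at 10 ng/mL without T cells. Each cytokine alone and IL-2 with beads alone were not analysed here. Control and cytokine cultures therefore differ by both cytokines at once, and Treg and control cultures also differ by whatever the beads and IL-2 add.

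The kept cells of each library contained between 51 and 112 Paneth cells, or between 2.63% and 3.09% of the cells kept. A Paneth cell held a median of 32055.5 UMIs from 5157 genes, against 44594 UMIs and 6197 genes in the 11641 other kept cells. By group, the 3 replicates held 8, 19 and 9 Paneth cells in control, 12, 32 and 7 with Treg cells, 9, 13 and 6 with Treg cells and anti-IFNγ, 20, 36 and 11 with Treg cells and anti-IL-10R, 18, 17 and 6 with both antibodies, and 48, 49 and 26 with rIFNγ plus rIL-10. Levels below are UMIs per 10000 gene UMIs of a cell or of the summed Paneth cells of a group and replicate, and the 18 sums held between 198412 and 1770250 UMIs. As the libraries read transcript ends, levels of different genes can be compared only roughly.

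The 3 alpha-defensins that chose the cells are near-identical copies on mouse chromosome 8 (build GRCm38), so that a read can fit more than one of them and their separate levels are uncertain. Their coding sequences are shown because this likeness limits what can be said of each: Defa24 (chr8:21734537-21735374, plus strand) in lower case, and the bases at which Defa17 (chr8:21655801-21656638) and Defa30 (chr8:21134663-21135500) differ from it in capitals, from the GENCODE transcripts of that build.
Defa24: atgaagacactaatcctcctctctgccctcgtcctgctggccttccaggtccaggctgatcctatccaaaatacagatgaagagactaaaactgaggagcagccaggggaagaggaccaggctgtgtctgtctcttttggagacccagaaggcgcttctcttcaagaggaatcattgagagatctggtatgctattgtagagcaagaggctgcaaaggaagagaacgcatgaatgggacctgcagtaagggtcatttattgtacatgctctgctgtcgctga
Defa17: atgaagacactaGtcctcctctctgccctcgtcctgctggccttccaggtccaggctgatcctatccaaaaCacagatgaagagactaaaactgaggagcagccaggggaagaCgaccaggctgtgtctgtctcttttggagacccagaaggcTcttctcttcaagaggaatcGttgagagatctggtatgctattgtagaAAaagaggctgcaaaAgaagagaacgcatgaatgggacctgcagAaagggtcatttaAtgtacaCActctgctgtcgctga
Defa30: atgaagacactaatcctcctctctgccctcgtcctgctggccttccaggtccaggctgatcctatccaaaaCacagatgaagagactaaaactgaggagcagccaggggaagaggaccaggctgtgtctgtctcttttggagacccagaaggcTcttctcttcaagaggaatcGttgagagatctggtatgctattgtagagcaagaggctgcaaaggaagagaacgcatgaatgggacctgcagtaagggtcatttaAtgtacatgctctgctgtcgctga
All 3 coding sequences are 282 bases long, and Defa17 differs from Defa24 at 12 positions and Defa30 at 4. Over the last 100 bases of the transcripts, where 3′ reads fall, Defa24 and Defa30 were 97.0% identical and Defa24 and Defa17 94.0%.

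Defa24 carried most of the signal. Its level over all 346 Paneth cells was 695 UMIs per 10000, against 148 for Defa30, 59.6 for Lyz1 and 53.5 for Defa17. In the other kept cells the same genes stood at 0.619, 0.083, 0.268 and 0.066. Defa24 was the most abundant of the 4 in 324 Paneth cells (93.6%) and Lyz1 in 18. All 22 Defa genes of the annotation together made up 9.43% of the UMIs of Paneth cells, and 19 of them had at least 1 UMI there.

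The defensin and lysozyme sum varied widely between members. It ran from 50.4 to 4406, with a median of 555 and quartiles of 196 and 1560. Just inside the threshold stood cells at 50.4, 50.6 and 50.6, and just outside it cells at 49.8, 48.4 and 47.7. Few cells lay close to it: 57 held between 25 and 50, 40 held between 50 and 100, and 306 held 100 or more, while 8882 held under 1. Cells rich in enterocyte transcripts, which should lack these genes, had median sums of 0.304 to 0.673 per library, a measure of the free RNA.

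Members also differed in which other Paneth genes they expressed. Itln1, the lectin intelectin, reached 10 per 10000 in 152 members (43.9%) and was at 0 in 121. Mptx1, a mucosal pentraxin, reached 10 in 51 members (14.7%) and was at 0 in 183, and 26 members had both at that level. Lyz1 reached 10 in 246 members (71.1%). Across the 346 cells, Defa24 went with Defa17 at a Spearman correlation of 0.844, with Itln1 at 0.513, with Lyz1 at 0.416 and with Mptx1 at 0.093, which describes cells that share libraries and depth and carries no test.

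The label was checked against other marker genes. Of 13 measured Paneth markers besides the 4 rule genes, 12 had a higher level in the members than in the other kept cells, and Reg3g stood at 0.081 against 0.411. These 13 include Defa21 and Defa22, whose reads may be shared with the rule genes. Mptx1 stood at 11.6 against 0.089, Itln1 at 27.5 against 0.056 and Mmp7, the protease that cuts pro-defensins into active peptides, at 9.44 against 0.024. Goblet genes were abundant as well: all 11 goblet markers were higher in members than in the other kept cells, and their summed level was 597 in Paneth cells, 325 in 266 goblet-marked cells (goblet transcripts at 50 or more and not Paneth) and 8.78 in all 11641 kept cells that are not Paneth cells, goblet-marked cells included. Spink4 alone stood at 341 and Tff3 at 141, above the goblet-marked cells (117 and 105). Of the 346 members, 337 also held the goblet genes Muc2, Tff3, Fcgbp, Zg16 and Clca1 at a sum of 50 or more, and the other 9 held less than that. Enterocyte markers had a summed level of 7.22 in members against 49.4 in the other cells, and T cell markers stood at 0.002.

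**Figure D1:**
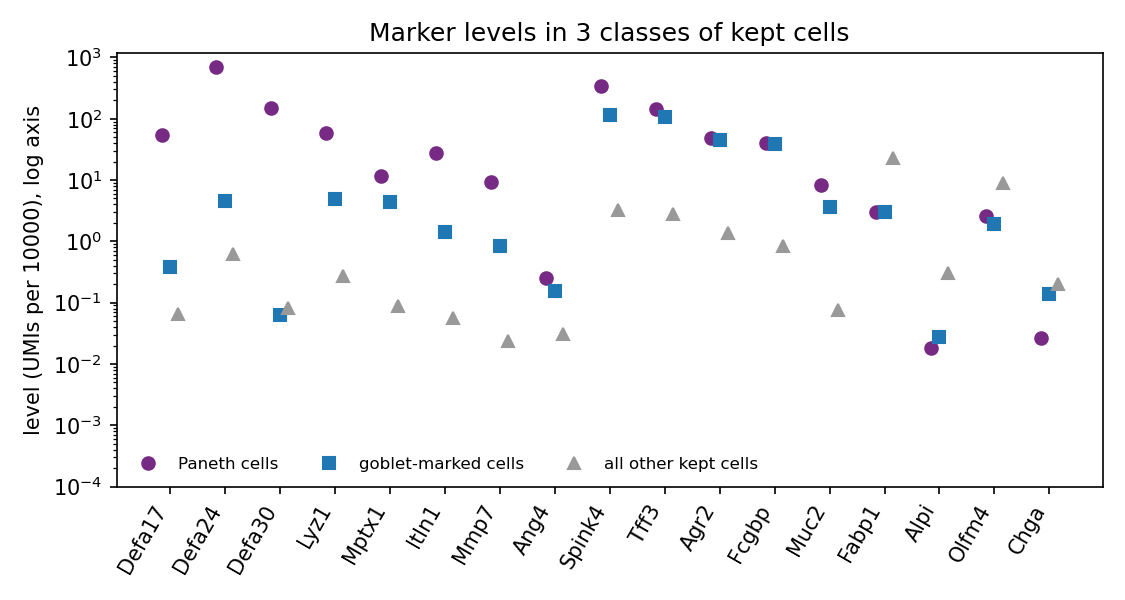
Levels of marker genes (UMIs per 10000, log axis) over all Paneth cells, goblet-marked cells and all kept cells that are not Paneth cells (which include the goblet-marked ones). Defa17, Defa24, Defa30 and Lyz1 chose the Paneth cells; Spink4, Tff3, Agr2 and Fcgbp are high in both secretory classes, and the enterocyte gene Fabp1 and the stem cell gene Olfm4 are higher in the other cells.

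The share of Paneth cells was compared between groups. In control it was 1.31%, 2.17% and 2.62% in replicates 1 to 3 (mean 2.03% ± 0.67, SD, n = 3). With rIFNγ plus rIL-10 it was 8.41%, 5.31% and 7.74% (mean 7.15% ± 1.63, SD, n = 3), above every other value measured in the 6 groups. The difference was 7.10, 3.14 and 5.12 percentage points within the 3 replicates, a mean of 5.12 points or 3.52 times the control share. An exact permutation test (two-sided) gave p = 0.1, the smallest that 3 samples against 3 allow, and 0.333 after Benjamini-Hochberg adjustment over the 5 groups set against control. The share is not independent of expression, since the rule genes themselves differed between groups. The median defensin and lysozyme sum of the members was 1049, 289 and 580 in the 3 control replicates and 1327, 864 and 405 with the cytokines, higher in replicates 1 and 2 and lower in replicate 3. With a threshold of 100 the difference was 4.48 points and with 25 it was 5.42 points. Restricted to the 9 members with goblet transcripts under 50 per 10000 it was -0.0783 points. Among the other secretory cells, goblet-marked cells made up 3.60% of the kept cells with the cytokines and 1.62% in control (exact p = 0.1), and cells with Chga and Chgb at 10 or more 3.33% and 1.41%.

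Shares in the 4 co-cultures differed less from control. The mean share was 2.21% ± 0.90 with Treg cells, 1.36% ± 0.18 with added anti-IFNγ, 3.11% ± 0.59 with anti-IL-10R and 1.98% ± 0.46 with both antibodies (SD, n = 3 each). Against control, the exact permutation test gave p between 0.2 and 0.9 for these 4 groups. The Treg share lay above control in replicates 1 and 2 and below it in replicate 3. Without library B3, the share in replicate 2 was 2.71% with Treg cells and 2.84% in control, so that it lay below control there too. With anti-IL-10R it lay above control in 3 of 3 replicates, by 1.22, 1.53 and 0.465 points, but with a rule threshold of 100 replicate 3 lay below control (2.52% against 2.62%). With anti-IFNγ it differed by -0.0877, -0.869 and -1.05 points, below control in 3 of 3. When the cells called doublets were left out, its replicate 1 lay above control (1.24% against 0.832%), and the mean difference was -0.334 in place of -0.667 points. The test does not use this pairing of replicates. Within each replicate the share was higher with anti-IL-10R than with anti-IFNγ, by 1.31, 2.40 and 1.51 points (exact permutation p = 0.1, chosen after the values were seen).

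**Figure D2:**
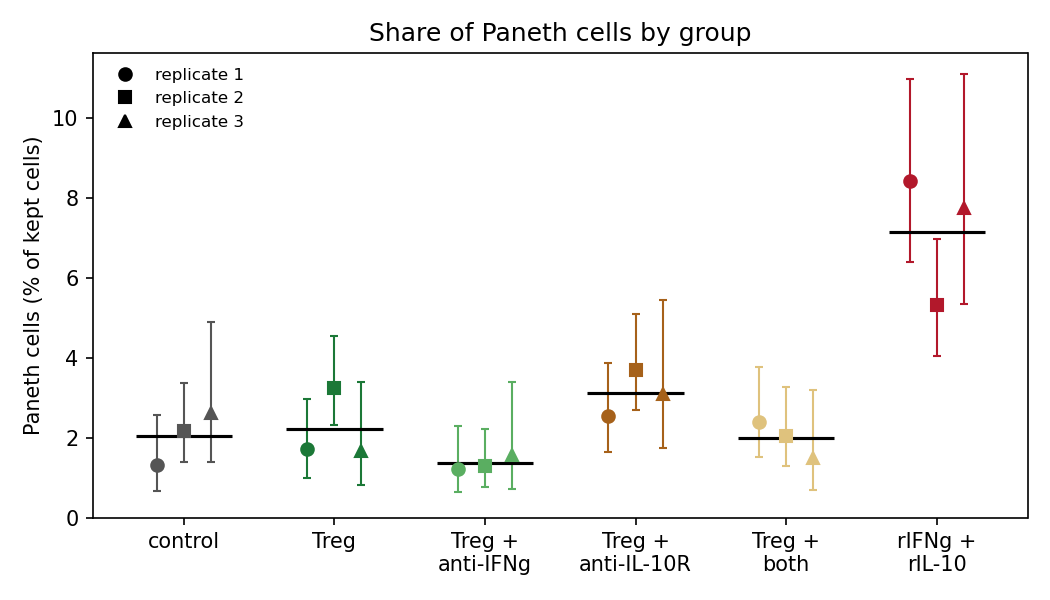
Share of Paneth cells among kept cells (percent) in the 6 groups. Each point is a replicate with its 95% Wilson interval, which covers counting error only, and the bar is the mean of 3 replicates; the 3 values with rIFNγ plus rIL-10 lie above all others.

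Gene levels were then compared between groups over the summed Paneth cells, with the replicate as a block, for 7367 genes that passed a filter on low counts. The control sums enter 5 of the 7 comparisons, which are therefore not independent of each other. All adjusted p-values are from edgeR's quasi-likelihood test with Benjamini-Hochberg adjustment over all genes tested, and they rest on 3 replicates.

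Before the results, libraries and cells that stand apart are named. Scrublet, which scores each cell against simulated doublets, called 34 of the 346 Paneth cells: 7 of 36 in control (19.4%), 5 of 51 with Treg cells, 3 of 28 with anti-IFNγ, 7 of 67 with anti-IL-10R, 6 of 41 with both antibodies and 6 with the cytokines (4.88%). The called cells hold many UMIs, so that they supplied 31.7% of the control UMIs and 57.0% of those of control replicate 1, but 6.58% with the cytokines. Calls that were lost without them are named beside the results. In the third replicate with anti-IL-10R, the summed level of 12 enterocyte markers was 95.3, against 2.94 to 15.1 in the other 17 sums, with Fabp1 the most abundant. T cell markers were near 0: no more than 1 of 10 had a UMI in any group.

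Of the 5 conditions set against control, rIFNγ plus rIL-10 gave the most calls. Of the 7367 genes, 81 were higher (1.1%) and 69 lower (0.937%) than in control, with a median log2 fold change over all genes of -0.01, and DESeq2 called 64 and 61. The 3 values of the groups did not overlap for 448 genes with higher levels (6.08%) and 809 with lower levels (11%). Without the replicate block 58 were higher and 41 lower. Leaving out replicate 1 gave 43 higher and 11 lower genes, leaving out replicate 2 gave 49 and 24, and leaving out replicate 3 gave 61 and 57. Without library B3 the counts were 64 and 43, and without the cells called doublets they were 51 and 8. The genes that rose were led by antigen presentation through MHC class II, the molecules that show peptides to CD4+ T cells, by immunity-related GTPases, by immunoproteasome subunits and by Ido1. The genes that fell were led by Olfm4, Dmbt1, Jaml and Cps1.

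Cd74, the invariant chain that escorts MHC class II molecules, stood at 0, 0.04 and 0.05 in the 3 control replicates. With rIFNγ plus rIL-10 it stood at 19.0, 11.7 and 24.3. The groups were far apart, and the log2 fold change was 9.24 (SE 0.57, adjusted p = 7.2e-10), from 5 UMIs in all control Paneth cells together. H2-Aa, an MHC class II alpha chain, had no UMI in any control replicate and stood at 4.65, 2.43 and 4.93 with the cytokines, at least 194-fold higher when control is put at 3 UMIs over the group. H2-Eb1, a beta chain, had no control UMI either and stood at 3.67, 1.80 and 3.60, at least 148-fold higher. H2-Ab1 had 3 UMIs in control and stood at 3.64, 2.32 and 4.52, a ratio of 166 with a counting interval of 56.6 to 805. In each of these genes the second replicate with cytokines was the lowest of the 3. The class II list held 13 genes; 6 passed the filter and all 6 were higher (1.1% of all genes tested were), but a gene that enters only through the group where it is high had to differ, and 4 listed genes (H2-Oa, H2-Ob, Cd80 and Cd86) had no UMI in control or cytokine Paneth cells.

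Cell by cell, the summed class II level separated the cytokine group almost completely from control. The highest of 36 control Paneth cells held 0.699 UMIs per 10000, and the median cytokine-treated cell held 28.0. Of the cytokine-treated cells, 122 lay above the highest control cell, and the only other held 0.661. Control cells were captured in the same droplet runs as the cytokine-treated ones, so that the control levels also hold whatever free class II RNA those runs contained.

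**Figure D3:**
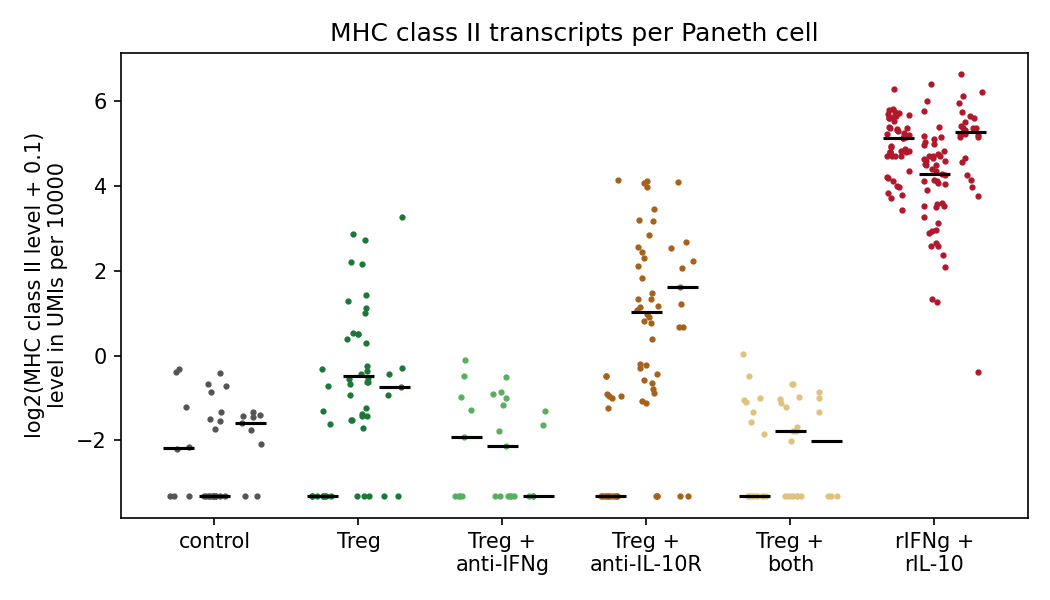
Summed level of MHC class II pathway genes in each Paneth cell, as log2 of UMIs per 10000 plus 0.1, for the 3 replicates of each group side by side (bars, median of a replicate). Cytokine-treated cells lie above control in all 3 replicates; with Treg cells alone or with anti-IL-10R cells spread upward in replicates 2 and 3, whereas in replicate 1 the medians stay at 0.

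Of 20 listed MHC class I pathway genes 17 were tested and 17 were higher (1.1% of all genes tested were), with a median log2 fold change of 2.35 against -0.01 for all genes. Some of them, such as Tap1 and Tap2, were almost absent in control and passed the filter through other groups, so that part of this count was fixed by the filter. H2-K1, a classical class I chain, went from 1.04, 2.00 and 1.97 to 7.62, 6.64 and 7.89 (log2 fold change 2.28, SE 0.20). B2m, the light chain of class I, went from 2.37, 2.59 and 2.65 to 17.7, 7.34 and 12.4 (log2 fold change 2.35, SE 0.23). No replicate of either gene overlapped between the groups. The immunoproteasome subunit Psmb8 rose from 0.03, 0.06 and 0.07 to 3.46, 1.97 and 3.48 (log2 fold change 5.89, SE 0.48, adjusted p = 4e-08), and Psmb9 by a log2 fold change of 5.05 (SE 0.56). The 31 constitutive proteasome subunits on the list had a median of 0.11, and none passed the test.

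The interferon-inducible GTPases and enzymes rose too, and here the replicates differed from each other. Iigp1, an immunity-related GTPase that acts on vacuoles of intracellular pathogens, had no control UMI and stood at 7.33, 2.90 and 3.87 with the cytokines, at least 251-fold higher. Ido1, which breaks down tryptophan, had no control UMI and stood at 9.44, 0.48 and 2.14, at least 233-fold higher. For Ido1, replicate 1 was thus far above replicate 2 under the same stimulus. The guanylate-binding proteins showed the same order, with summed levels of 4.99, 0.465 and 1.09 in the 3 cytokine replicates. Of 9 listed immunity-related GTPases, 3 were tested and 3 were higher (Iigp1, Igtp and Irgm1), and of 11 guanylate-binding proteins only Gbp7 was tested, which was at least 55.7-fold higher. Iigp1, Igtp and Gbp7 had no control UMI and passed the filter only through the cytokine group, so that these counts were largely fixed by the filter (1.1% of all genes tested were higher).

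Among transcription factors of the interferon pathway, Irf1 went from 0.11, 0.06 and 0.05 to 1.44, 0.84 and 1.30, without overlap. It rose by a log2 fold change of 4.27 (SE 0.49) and Irf8 by 2.27 (SE 0.33). Stat3, which carries the IL-10 signal, stood at 0.37, 0.25 and 0.24 in control and 0.53, 0.37 and 0.36 with the cytokines (log2 fold change 0.64, SE 0.29, adjusted p = 0.37). None of 7 tested receptors, kinases and feedback inhibitors passed the test (median -0.21). Of 6 tested chemokines and checkpoint ligands, Lgals9, which encodes galectin-9, was higher, besides Ido1, which had no control UMI and was tested only through the cytokine group (1.1% of all genes were higher).

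Art2b, an ADP-ribosyltransferase anchored to the cell surface, was even across replicates. It stood at 0.05, 0.11 and 0.05 in control and at 2.78, 3.16 and 3.00 with the cytokines (log2 fold change 5.41, SE 0.47, adjusted p = 9e-08). In the other kept cells treated with the cytokines it stood at 0.08, 0.14 and 0.16, so that its level was higher in Paneth cells in 3 of 3 replicates. It was also higher in Paneth cells in control (0.071 against 0.0029), and the response did not pass as different between the classes (interaction 0.10, adjusted p = 1.0). The long noncoding RNA AW112010 rose by a log2 fold change of 5.38 (SE 0.49).

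Promoter sequences of 5 genes that rose are shown as examples that hold known interferon-related motifs. They were chosen for a match, and none of these motifs was found in the same 150 bases of Tap1, Art2b or Mmp7, which rose as well. The 150 bases before the transcription start come from RefSeq (GRCm38.p6), read along the gene's strand. Capitals mark exact matches on either strand to TTCNNNGAA (the gamma-activated site of interferon-inducible genes), the letters GAAA, any 2 bases and GAAA again (a form of the interferon-stimulated response element) or CTGATTGG (the Y box of MHC class II promoters). H2-Aa lies at chr17:34287824-34287973 (minus strand), H2-Eb1 at chr17:34305717-34305866 (plus), Gbp7 at chr3:142530186-142530335 (plus), Igtp at chr11:58199406-58199555 (plus) and Irf1 at chr11:53769864-53770013 (plus).
H2-Aa: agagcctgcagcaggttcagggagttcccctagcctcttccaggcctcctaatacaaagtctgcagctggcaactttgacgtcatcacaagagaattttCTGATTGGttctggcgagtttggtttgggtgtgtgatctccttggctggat
H2-Eb1: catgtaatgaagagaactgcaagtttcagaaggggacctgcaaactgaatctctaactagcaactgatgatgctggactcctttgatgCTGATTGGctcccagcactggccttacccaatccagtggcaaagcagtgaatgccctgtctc
Gbp7: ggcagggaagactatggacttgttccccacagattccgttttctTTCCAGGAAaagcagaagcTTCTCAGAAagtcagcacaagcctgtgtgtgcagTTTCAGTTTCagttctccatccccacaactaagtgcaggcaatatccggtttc
Igtp: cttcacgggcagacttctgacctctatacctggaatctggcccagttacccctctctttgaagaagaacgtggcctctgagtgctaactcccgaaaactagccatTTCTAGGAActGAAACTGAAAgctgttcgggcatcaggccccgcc
Irf1: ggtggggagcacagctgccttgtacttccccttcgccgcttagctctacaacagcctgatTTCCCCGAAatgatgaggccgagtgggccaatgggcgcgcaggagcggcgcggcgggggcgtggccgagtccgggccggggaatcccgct
The Y box begins at position -51 of H2-Aa and -62 of H2-Eb1, counted from the start. Of the 81 genes that were higher, 62 had a promoter in the RefSeq table, which spans 250 bases before to 50 after the start. TTCNNNGAA was found in 17.7% of these 62, the repeated GAAA in 22.6% and CTGATTGG in 19.4%, against 7.80%, 3.40% and 6.77% of the 5909 tested genes with a promoter and 9.55%, 3.99% and 4.70% of all 27025 genes in the table. Of 54 promoters of genes that were lower, the shares were 9.26%, 3.70% and 3.70%. A match is a description of letters, not evidence of binding.

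Few genes of the antimicrobial program passed the test. The rule genes are given without one: Defa24 stood at 699, 488 and 526 in control and 1091, 752 and 847 with the cytokines, and Lyz1 at 27.4, 27.6 and 46.4 in control and 64.0, 83.6 and 118 with the cytokines. For both genes the 3 summed cytokine values lay above all 3 control values. The median Defa24 level of a member was 858, 187 and 424 in control and 1059, 696 and 338 with the cytokines. These medians overlapped, and replicate 3 was lower with the cytokines. The Lyz1 medians did not overlap, at 17.7, 19.9 and 20.9 in control and 36.6, 53.2 and 57.4 with the cytokines. Defa30 overlapped, at 84.3, 172 and 145 in control and 229, 137 and 160 with the cytokines. Among 11 other alpha-defensins tested, none passed the test, and their median log2 fold change was 0.66, against -0.01 for all genes. The highest log2 fold change of the 11 was that of Defa35, at 0.19, 4.06 and 1.58 in control and 19.6, 9.52 and 10.3 with the cytokines (log2 fold change 3.29, SE 1.03, adjusted p = 0.13).

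Mmp7 rose. It stood at 5.51, 2.55 and 2.39 in control and at 21.9, 13.0 and 11.9 with the cytokines, without overlap (log2 fold change 2.27, SE 0.37, adjusted p = 0.00054). Without the cells called doublets the log2 fold change was 1.75 (adjusted p = 0.038). It was the only one of 10 tested antimicrobial genes other than alpha-defensins that passed (1.1% of all genes tested were higher), and the median of these 10 was 0.11. Mptx1 stood at 18.4, 9.55 and 28.8 in control and 11.6, 6.48 and 2.88 with the cytokines, with overlapping ranges (adjusted p = 0.55), and Itln1 at 42.0, 22.5 and 8.84 against 37.0, 25.5 and 29.2 (adjusted p = 0.78). Of 13 tested Paneth markers other than the rule genes, Mmp7 and Nupr1, a stress-induced chromatin protein, were higher (median 0.47), against 1.1% of all genes tested. Nupr1 was at a log2 fold change of 1.45 without the cells called doublets (adjusted p = 0.073). None of 11 goblet markers passed (median 0.28); Tff3 stood at 130, 109 and 105 in control and 130, 128 and 131 with the cytokines.

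Of 21 tested genes of the unfolded protein response, which adjusts the folding capacity of the endoplasmic reticulum, 2 were higher and none lower (median 0.36), against 1.1% and 0.937% of all genes. Hspa5, the chaperone BiP, went from 4.55, 4.13 and 3.68 to 6.49, 5.98 and 5.72 (log2 fold change 0.65, SE 0.16, adjusted p = 0.033), and Creld2 from 0.37, 0.43 and 0.39 to 0.99, 0.82 and 1.01 (log2 fold change 1.32, SE 0.28). Neither passed without the cells called doublets, with Hspa5 at 0.51 (adjusted p = 0.24) and Creld2 at 1.09 (adjusted p = 0.081). Xbp1, the transcription factor of this response, stood at 1.62, 2.01 and 1.73 in control and 1.69, 2.15 and 1.89 with the cytokines (adjusted p = 0.80). Atg7, an autophagy enzyme that Paneth cell granules depend on, went from 0.56, 0.36 and 0.39 to 0.84, 0.99 and 0.66 (log2 fold change 1.06, SE 0.22, adjusted p = 0.0075). It was the only one of 17 tested genes of autophagy and granule handling that passed (median 0.33, with 1.1% of all genes higher), and without the cells called doublets it was at 0.86 (adjusted p = 0.25).

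Niche signals for stem cells showed 2 lower genes of 11 tested and none higher (median -0.21), against 0.937% lower and 1.1% higher among all genes. Wnt3, the main Wnt ligand of Paneth cells, stood at 0.53, 0.55 and 0.51 in control and at 0.58, 0.59 and 0.57 with the cytokines (log2 fold change 0.22, SE 0.21, adjusted p = 0.78). Fzd5, the Wnt receptor, and Hbegf, an EGF family ligand, fell by 1.68 (SE 0.37) and 2.22 (SE 0.53) on the log2 scale. Hes1, the Notch effector that opposes the secretory fate and 1 of 12 tested secretory lineage factors, fell by 1.60 (SE 0.41, adjusted p = 0.035), while Atoh1 stood at 1.54, 1.20 and 1.61 in control and 1.62, 1.52 and 1.62 with the cytokines (adjusted p = 0.68). Without the cells called doublets Hes1 had a log2 fold change of -0.57 (adjusted p = 0.89), Fzd5 one of -1.28 (adjusted p = 0.61) and Hbegf one of -0.74 (adjusted p = 0.94).

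Among the genes that fell most, Olfm4, a marker of crypt stem cells, went from 7.11, 4.22 and 1.41 in control to 0.14, 0.67 and 0.30 (log2 fold change -3.51, SE 0.86, adjusted p = 0.029). Dmbt1, a mucosal scavenger receptor, went from 0.82, 0.97 and 1.22 to 0.12, 0.13 and 0.07 (log2 fold change -3.08, SE 0.33, adjusted p = 1.9e-06). Cps1, the first enzyme of the urea cycle, went from 3.97, 2.90 and 3.29 to 0.41, 0.77 and 0.51 (log2 fold change -2.50, SE 0.31). In these 3 genes every control replicate lay above every cytokine replicate. Jaml, an adhesion molecule, fell by 2.93 on the log2 scale, Pdgfa by 2.39, Prap1 by 1.79, Clca3b by 1.73, Mt2 by 1.65, Camk1d by 1.34 and Egr1 by 1.30. Of the 7 tested stem cell markers Olfm4 and Cdca7 were lower (0.937% of all genes tested were), and Lgr5 stood at 0.51, 0.65 and 0.24 against 0.21, 0.63 and 0.41 (adjusted p = 0.97).

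These lower calls moved with the cells called doublets. Of the 69 lower genes, 58 (84.1%) had a higher level in the other control cells than in the control Paneth cells, against 54.4% of all genes tested and 42.0% of the 81 higher genes. Without the called cells, 7 of the 69 passed the test, and 46 of the 81 higher genes did. In control replicate 1 the Olfm4 level was then 0.12 in place of 7.11 and the Dmbt1 level 0.12 in place of 0.82. With the cytokines, Dmbt1 in replicate 1 stood at 0.07 without the called cells and at 0.12 with them. Without those cells, Dmbt1 was at a log2 fold change of -2.14 (adjusted p = 0.059). Prap1 passed at -1.73 (adjusted p = 0.039), whereas Pdgfa was at -0.67 (adjusted p = 0.82). Olfm4 was at -2.82 (adjusted p = 0.32), Jaml at -2.59 (adjusted p = 0.21) and Cps1 at -1.59 (adjusted p = 0.081). Clca3b (-1.37), Mt2 (-1.25), Camk1d (-0.96), Egr1 (-1.03), Cdca7 (-1.03), Ncl (-0.34) and Nlrp6 (-1.53) did not pass either, with the log2 fold change given for each. The 10 named genes that rose, and H2-K1, B2m, Irf1, Irf8, Lgals9, Zbp1, Igtp, Irgm1 and Gbp7, passed without the called cells, with Cd74 at 9.23 (adjusted p = 5.1e-07). H2-Aa, H2-Eb1, Iigp1, Ido1, Igtp and Gbp7 had no control UMI, so that leaving out control cells could not change their control level. That these genes passed again therefore says little about the called cells. The called cells made up a larger part of control than of the other groups, and their part in the lower calls beyond these values was not tested.

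The remaining lists showed few changes, where 1.1% of all genes tested were higher and 0.937% lower. None of 10 cycling markers (median -0.20), 7 enterocyte markers (median -0.84) or 2 enteroendocrine markers passed, and no tuft or T cell marker passed the filter. Of 14 cell death genes Zbp1, a sensor of nucleic acids, was higher (log2 fold change 5.50, SE 0.90) and Nlrp6 lower (-1.91, SE 0.40). Of 17 genes of mTORC1 and Myc signaling, Ncl, a nucleolar protein, was lower (-0.72, SE 0.16) and none was higher (median 0.05). Myc stood at 0.32, 0.59 and 0.46 in control and 0.34, 0.30 and 0.29 with the cytokines (adjusted p = 0.62).

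**Figure D4:**
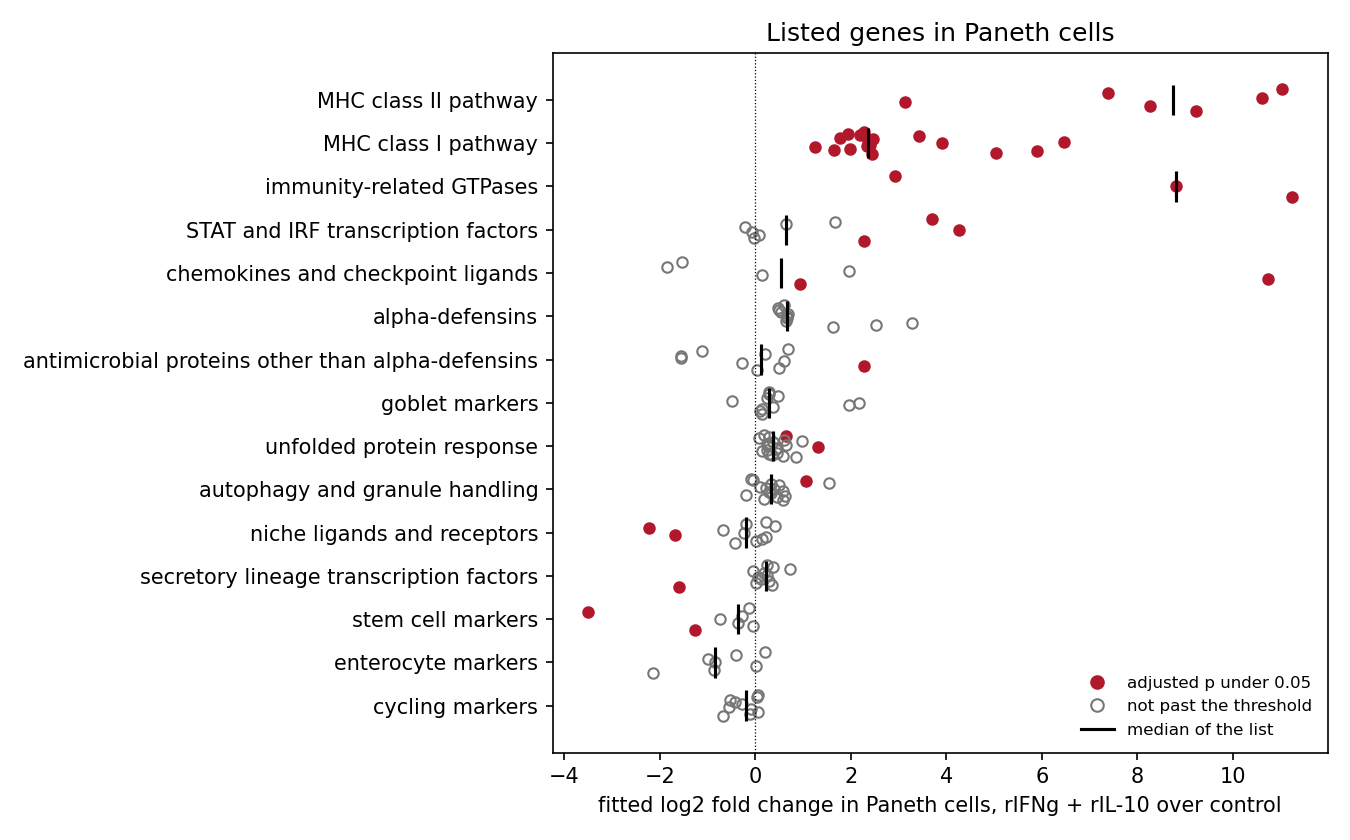
Fitted log2 fold change in Paneth cells, rIFNγ plus rIL-10 over control, for the tested genes of 15 lists without the rule genes (filled, adjusted p under 0.05, edgeR; bars, list medians). MHC class I and II genes lie on the right, with values of genes without control UMIs being fitted values and not bounds; alpha-defensins lie above 0, with a median of 0.66 and none filled, and the filled points below 0 are Olfm4, Cdca7, Hes1, Fzd5 and Hbegf.

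Treg co-culture changed 2 genes by the test: Cd74 was higher (0.0136% of the genes tested) and Dmbt1 lower (0.0136%). Cd74 stood at 0.05, 0.78 and 0.96 with Treg cells (log2 fold change 4.15, SE 0.73, adjusted p = 0.035), so that replicate 1 lay near control and replicates 2 and 3 above it. Summed over the class II genes, the levels were 0.213, 0.152 and 0.195 in control and 0.126, 1.38 and 1.82 with Treg cells. Of 51 Paneth cells with Treg cells, 17 (33.3%) lay above the highest control cell: 1 of 12 in replicate 1, 14 of 32 in replicate 2 and 2 of 7 in replicate 3. In replicate 3 the highest cell carried most of the level, which was 0.398 without it. Dmbt1 stood at 0.15, 0.28 and 0.19, below the control values (log2 fold change -2.16, SE 0.35, adjusted p = 0.025). No gene passed without the cells called doublets, with Cd74 at a log2 fold change of 3.86 (SE 1.07, adjusted p = 0.58) and Dmbt1 at -1.14 (SE 0.54, adjusted p = 0.81). None passed either without the replicate block (Cd74 4.13, Dmbt1 -2.10), without replicate 2 (3.96 and -2.64) or without replicate 3 (4.14 and -1.94). Cd74 did not pass in DESeq2 (4.15, DESeq2 adjusted p = 0.20) or without library B3 (3.81, adjusted p = 0.083), where Dmbt1 did. Dmbt1 did not pass at rule thresholds of 25 (-2.15, adjusted p = 0.18) or 100 (-1.61, adjusted p = 0.29), where Cd74 did.

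With Treg cells and anti-IL-10R, 6 genes were higher (0.0814%) and 1 lower (0.0136%) than in control, and DESeq2 called 9 and 1. Cd74 stood at 1.23, 2.46 and 2.46 (log2 fold change 5.97, SE 0.62, adjusted p = 1.7e-05). H2-Aa stood at 0.30, 0.39 and 0.32, at least 17.6-fold higher than control, and H2-Eb1 at 0.41, 0.38 and 0.20, at least 18.3-fold higher. H2-Ab1, Art2b (0.41, 0.87 and 0.84) and Psmb8 (0.16, 0.69 and 0.58) were the other higher genes, and Dmbt1 was the lower gene (0.33, 0.31 and 0.29). The cells behind these levels were unevenly spread: 1 of 20 in replicate 1, 26 of 36 in replicate 2 and 9 of 11 in replicate 3 lay above the highest control cell. In replicate 1 that cell held 88073 UMIs, was called a doublet, and without it the summed class II level was 0.17 in place of 2.45. Without all called cells no gene passed, with Cd74 at a log2 fold change of 5.07 (adjusted p = 0.15). Leaving out replicate 1 instead, Cd74 kept a log2 fold change of 5.77 (adjusted p = 1.2e-06). The enterocyte transcripts of replicate 3 belong beside these values, and their part was not tested.

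With anti-IFNγ the class II level stayed near control. Its summed levels were 0.232, 0.186 and 0.096 with Treg cells and anti-IFNγ, and 0.169, 0.211 and 0.151 with both antibodies, overlapping control in each case. In both groups 1 cell lay above the highest control cell, of 28 and of 41. With anti-IFNγ no gene was called against control by edgeR, 418 had an unadjusted p under 0.05, and DESeq2 called 1. With both antibodies Dmbt1 was the only gene called, lower at 0.15, 0.23 and 0.05 (0.0136% of genes, log2 fold change -2.57, SE 0.38, adjusted p = 0.0053). Between Treg cells alone and Treg cells with both antibodies no gene was called, with 258 at an unadjusted p under 0.05 and none by DESeq2. The 4 comparisons with lower Dmbt1 share the same control replicates. In the 3 co-cultures with lower Dmbt1, its adjusted p was above 0.05 whichever replicate was left out, and without the cells called doublets.

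Compared with Treg co-culture, rIFNγ plus rIL-10 gave 38 higher genes (0.516%) and 7 lower ones (0.095%). Without replicate 1 the counts were 18 and 1. All 6 tested class II genes and 13 of 17 class I genes were among the higher ones, and here too members near 0 outside the cytokine group, such as H2-DMb1, Tap1 and Tap2, passed the filter through the group where they are high. Cd74 was 27.1 times higher with the cytokines (log2 fold change 5.09, SE 0.41, adjusted p = 1.1e-07), and the lowest cytokine replicate (11.7) lay above the highest Treg replicate (0.96). The counts were 39 and 6 without the cells called doublets. Ido1 had no UMI in Paneth cells with Treg cells and was at least 262-fold higher with the cytokines. Its cytokine replicates stood at 9.44, 0.48 and 2.14, so that this bound rests largely on replicate 1. Among the lower genes, Immp2l, a mitochondrial inner membrane peptidase, stood at 1.67, 2.08 and 1.30 with the cytokines and 5.44, 3.11 and 2.59 with Treg cells (log2 fold change -1.02, SE 0.20, adjusted p = 0.011).

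Whether Paneth cells responded differently from the other kept cells was tested by the interaction of class and treatment over 13739 genes. The response to rIFNγ plus rIL-10 was more positive in Paneth cells for 36 genes (0.262%) and more negative for 72 (0.524%). Without the replicate block 12 genes passed, and leaving out replicate 1, 2 or 3 left 13, 41 or 9. No gene of the class I, class II, guanylate-binding, immunity-related GTPase or STAT and IRF lists was among them. For genes without control UMIs the interaction has standard errors of up to 28.3 on the log2 scale and says little: Ido1 stood at 4.02 in cytokine-treated Paneth cells and 0.08 in the other cells (interaction adjusted p = 0.62), and Igtp at 0.89 and 1.82 (adjusted p = 0.99). B2m stood at 12.5 in cytokine-treated Paneth cells and 6.62 in the others (interaction 0.76, SE 0.28, adjusted p = 0.25), and Psmb8 at 2.97 and 5.22 (adjusted p = 0.98).

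The fitted log2 fold changes of several genes had opposite signs in the 2 classes. Tspan1, a tetraspanin, stood at 0.82, 1.32 and 1.39 in control and 1.56, 1.46 and 1.37 in cytokine-treated Paneth cells. In the other cells it stood at 0.54, 0.66 and 0.71 and then at 0.19, 0.36 and 0.28 (interaction 1.58, SE 0.24, adjusted p = 0.001). Lbh, a transcription cofactor, stood at 0.56, 0.51 and 0.66 and then 1.23, 0.77 and 1.10 in Paneth cells, against 0.08, 0.05 and 0.07 and then 0.03, 0.02 and 0.03 in the others (interaction 2.20, SE 0.33, adjusted p = 0.00073). Foxa3, a transcription factor of secretory cells, had an interaction of 0.96 (SE 0.17, adjusted p = 0.0033). Ccnd1, cyclin D1, went the other way: it stood in the other cells at 1.17, 1.09 and 0.86 in control and 2.53, 2.11 and 2.21 with the cytokines, and in Paneth cells at 1.44, 0.65 and 0.93 in control and 0.91, 0.58 and 0.72 with the cytokines (interaction -1.43, SE 0.28, adjusted p = 0.010). Dmbt1 stood at 5.74, 3.72 and 4.03 in the other control cells and 3.60, 3.76 and 3.94 in the other cytokine-treated cells, and its fall in Paneth cells gave the most negative interaction of the genes named (-2.84, SE 0.30, adjusted p = 2.7e-06). Without the cells called doublets 8 genes passed the interaction test, 7 of them among the 108, including Lbh (1.97, adjusted p = 0.039) and Tspan1 (1.29, adjusted p = 0.039), while Foxa3 was at 0.84 (adjusted p = 0.070), Ccnd1 at -1.37 (adjusted p = 0.12) and Dmbt1 at -2.03 (adjusted p = 0.078).

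**Figure D5:**
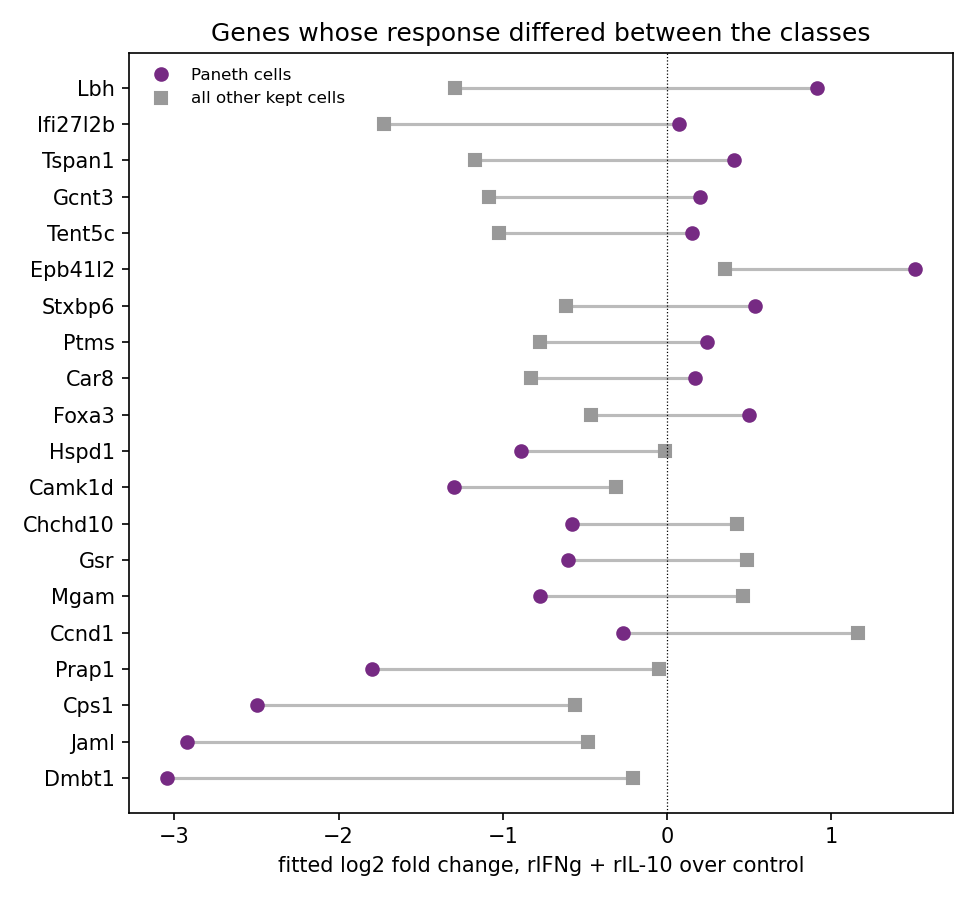
Fitted log2 fold change of 20 genes, rIFNγ plus rIL-10 over control, in Paneth cells (circles) and all other kept cells (squares), ordered by the difference. For the upper genes, other than Epb41l2, the other cells lie below 0 and Paneth cells above it; for Dmbt1, Jaml, Cps1 and Prap1 Paneth cells lie furthest to the left.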

How the data were processed

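Small intestinal organoid cells of 6 hashtagged groups in 3 replicates were read in 5 libraries. The deposited matrices hold raw UMI counts per gene and hashtag, which the authors made with Cell Ranger 7.0.0 on mm10 (Seurat 4.0.5 is named in their notes). The 5 libraries held 35985 barcodes, fewer than the cell count that the study states for 5 libraries. Together with the barcodes of a further library of the series, which was not used here, the totals are equal. The study states that it excluded a library for its low UMI counts and ambiguous hashtags. Why its cell count for 5 libraries equals the total with the further library was not resolved here. Libraries held 128917456 to 223155304 gene UMIs, and intervals cover counting error only. Between 9 and 24 barcodes were shared by any 2 libraries.

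Hashtags were assigned with HTODemux (Seurat 5.3.0, CLR, quantile 0.99). Counts of Paneth cells were summed per group and replicate (at least 5 cells) and tested in edgeR 4.0.16 (R 4.3.3) with filterByExpr, TMM, a replicate block and the quasi-likelihood test, with Benjamini-Hochberg adjustment at 0.05. The interaction used sums of both classes. DESeq2 1.42.0 was an alternative. Shares were compared by exact permutation tests and Wilson intervals (scipy 1.17.1). Doublets were called with Scrublet (scanpy 1.11.5) and kept in the main tests. The study differs here: besides hashtag doublets, it removed those that scDblFinder called before its analysis. On simulated data for cytokines against control (7021 genes), 66.0% of 2-fold and 99.0% of 4-fold changes were recovered, with 7 false calls of 172. For cytokines against Treg cells these were 62.0% and 96.0%, with 13 false calls of 171. Changes were planted only in genes above a minimum level, so that the recovery does not cover genes of low level. No replicate effect and no doublets were simulated.

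Replicate numbers come from the labels, and all groups of a replicate were loaded together, so replicates were paired. Deviations of sums of the same replicate correlated at a mean of 0.135 (-0.101 to 0.358, 45 pairs), and of different replicates at -0.067. As deviations were taken from the mean of a group's replicates, the second value largely follows from the first and is not a separate observation.

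The members and gene lists were chosen with earlier results of these data known. Named genes were the 10 with the largest change each way among those past the threshold, in the same direction in every replicate and with a mean of at least 1 UMI per 10000 in the higher group, without the rule genes. Genes of the lists could be named too, and those that passed were named more often than those that did not. Lists covered Paneth, goblet, enteroendocrine, tuft, enterocyte, stem, cycling and T cell markers, antimicrobial, niche, lineage, unfolded protein response, autophagy, antigen presentation, interferon, cell death, proteasome and mTORC1 genes. Alternatives changed the block, filter, scaling, tool, rule threshold, depth cuts and doublets, and left out each replicate. Leaving out library B3, scaling without alpha-defensins and Lyz1, and the interaction without doublets were chosen after seeing the data. The result of 1 listed gene is not reported here.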

Additional observations from a re-analysis of the deposited data

Results flagged for a closer look

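For 108 genes the response to rIFNγ plus rIL-10 differed between Paneth cells and the other kept cells by the interaction test (edgeR, adjusted over 13739 genes). Of these, 20 are named here. The Paneth response was more positive for Lbh (2.201 on the log2 scale), Ifi27l2b (1.797), Tspan1 (1.576), Gcnt3 (1.285), Tent5c (1.177), Epb41l2 (1.156), Stxbp6 (1.147), Ptms (1.017), Car8 (0.9994) and Foxa3 (0.959). It was more negative for Dmbt1 (-2.84), Jaml (-2.443), Cps1 (-1.934), Prap1 (-1.749), Ccnd1 (-1.43), Mgam (-1.239), Gsr (-1.095), Chchd10 (-1.005), Camk1d (-0.9844) and Hspd1 (-0.8785). The same direction in 3 of 3 replicates was a condition for naming a gene, and so is not a separate result. Without the cells called doublets, Lbh and Tspan1 passed the test among these 20.

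Library B3 stood apart from the other 4 libraries. Of its barcodes with any hashtag, 26.08% carried 2 or more, against 7.44% to 10.2% in the others, a gap of 0.854 of the range against a limit of 0.71, which chance passes in about 1 in 20 groups. Its share of Paneth cells, 2.77%, lay within the range of the other libraries.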

How the results depend on the processing

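Without the replicate block, calls against control were 0 for Treg cells and 99 for the cytokines, and the interaction gave 12. Without a filter on low counts, the counts were 83 (Treg cells), 334 (cytokines), 20 (both antibodies), 32 (anti-IFNγ) and 63 (anti-IL-10R) against control, 39 for Treg cells against both antibodies, 178 for cytokines against Treg cells and 192 for the interaction. Without the cells called doublets they were 0, 59, 0 and 0 for Treg cells, cytokines, both antibodies and anti-IL-10R against control, and 8 for the interaction. Replicate 3 with both antibodies then kept 4 Paneth cells and was left out of this setting. A rule threshold of 25 gave 1 call for Treg cells and 0 for both antibodies against control, and a threshold of 100 gave 0 for both antibodies and 1 for Treg cells against both antibodies. DESeq2, and leaving out library B3, each gave 1 call for anti-IFNγ, and scaling without alpha-defensins and Lyz1 gave 1 for Treg cells against both antibodies. Leaving out each replicate gave 0 to 3 calls for Treg cells, 54 to 118 for cytokines, 0 to 0 for both antibodies, 0 to 1 for anti-IFNγ and 1 to 6 for anti-IL-10R against control, 0 to 2 for Treg cells against both antibodies, 19 to 47 for cytokines against Treg cells and 9 to 41 for the interaction. The cause of these changes was not tested.

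The share difference from control was -0.0468 (Treg cells), -0.0783 (cytokines) and -0.0453 points (anti-IL-10R) over the 9 members with goblet transcripts under 50 per 10000, too few for a fit across genes. It was -0.2244 points for Treg cells without library B3 and 0.0596 for both antibodies without the cells called doublets. Leaving out each replicate gave -0.2732 to 0.7389 points for Treg cells and -0.6259 to 0.4876 for both antibodies. Of the named genes' values under the alternatives, none changed sign. For cytokines against control, 256 stayed on their side of the threshold and 24 did not, and for the interaction 135 and 85. These totals include a lower minimum of cells per sum, which left every sum as it was. Without the cells called doublets, 11 stayed and 9 did not for cytokines against control, and 2 and 18 for the interaction. Sums of 6 to 49 cells limit the precision for genes of low level.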
